A study of Homo sapiens with 15 samples.

Results

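Chromosome 3 was examined along both arms in Pt-exo-seq libraries of the ovarian cancer lines PEO1 and PEO4. The chromosome was selected on the untreated libraries, in which it took a smaller share of reads in PEO4 than in PEO1, so the difference between the untreated lines is given as a description and was not tested. All windows of the count table on chromosome 3 were members, 220025 of 3439652 windows (6.40%). Windows with a midpoint below 91 Mb were assigned to the short arm 3p (101111 windows) and those above to the long arm 3q (118914 windows), on the hg19 build (GRCh37). The 4 tested 100 kb bins from 90 to 91 Mb, just inside 3p, had a log2 ratio of untreated PEO4 to untreated PEO1 of -0.07, and the first tested bins of 3q, from 93.5 Mb, also had -0.07, so that the boundary between the arms carried no step.

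PEO1 and PEO4 are established high-grade serous ovarian cancer lines that the labels class as platinum sensitive and platinum resistant. The 15 libraries fell into 5 groups of 3, namely PEO1 cells left untreated or given cisplatin at 16 µM, and PEO4 cells left untreated or given it at 16 or 32 µM. Each line is a single culture model, so a difference between the lines is a difference between these lines and not between sensitive and resistant tumours, and since nothing in the labels says whether replicates were separate cultures, p-values measure only the spread between these libraries, which may be technical. Cisplatin binds the N7 atom of purines and links neighbouring guanines on a strand. In Pt-exo-seq, exonucleases digest sheared DNA until a platinum adduct stops them, and the position of the stop is sequenced. Untreated libraries also yielded reads, so the read level of a long region can follow how much of that DNA the cells hold as well as how many adducts it carries, and these cannot be told apart within treated libraries. In ovarian cancer the distal part of 3q is often present in extra copies and harbours MECOM, PRKCI and PIK3CA, while 3p holds many tumour suppressor genes and is often lost.

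Library totals ranged from 27.7 to 56.6 M reads. A 100 kb bin of chromosome 3 held a median of 1301 reads, and the 1949 of 1981 bins whose mean reached 50 counts were tested (904 on 3p and 1045 on 3q). Of the windows, 2.05% had no read in any library. The libraries differed in their GC trend, the slope of the log2 level per 10 percentage points of GC content. Slopes ranged from -0.18 to 0.11 in the 6 untreated libraries. They were 0.39 in PEO1 16 µM replicate 1, -0.46 in PEO4 16 µM replicate 1, and -0.44 and -0.34 in PEO4 32 µM replicates 2 and 3, whereas the other 5 treated libraries lay between -0.05 and 0.03. The GC content was 40.3% on 3p and 39.2% on 3q, against 40.9% over all bins, and GG or CC dinucleotides occurred 10.1 and 9.54 times per 100 bases of 3p and 3q. The level of a region is therefore given as GC-adjusted level, in which each bin was divided by the median of all genomic bins of the same GC content in the same library, so that 1 is the genome median of that library and not a known number of copies.

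The chromosome was divided into 11 regions by the steps in level of each line's own untreated libraries, and the positions of the steps were then read again in the treated libraries. The sequences at 3 of these steps are shown because untreated and treated libraries of at least 1 line placed them in the same 1 kb window. The step at the SNRK and ANO10 genes and that in CADPS were present in both lines, and the step in TNIK was present in PEO1 alone. Each sequence is the central 300 bases of the window on the plus strand of GRCh37, with GG and CC dinucleotides, the main targets of cisplatin, in capitals. None overlaps an exon. The window locates a change in read level and not a junction at base resolution.
SNRK and ANO10 step, chr3:43420851-43421150: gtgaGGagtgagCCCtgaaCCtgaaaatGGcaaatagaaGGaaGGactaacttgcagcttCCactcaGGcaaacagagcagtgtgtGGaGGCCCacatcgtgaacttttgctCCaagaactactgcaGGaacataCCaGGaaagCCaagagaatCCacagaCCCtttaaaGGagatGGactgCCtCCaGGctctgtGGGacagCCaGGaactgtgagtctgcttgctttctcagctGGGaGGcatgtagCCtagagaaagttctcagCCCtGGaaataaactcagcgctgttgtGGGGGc
CADPS step, chr3:62674551-62674850: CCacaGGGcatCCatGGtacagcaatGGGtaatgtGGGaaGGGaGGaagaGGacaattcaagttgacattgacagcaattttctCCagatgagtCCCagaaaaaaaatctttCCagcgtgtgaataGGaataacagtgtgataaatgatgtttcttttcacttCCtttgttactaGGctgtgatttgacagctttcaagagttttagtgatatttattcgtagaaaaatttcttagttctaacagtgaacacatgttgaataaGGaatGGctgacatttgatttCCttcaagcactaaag
TNIK step, chr3:171138051-171138350: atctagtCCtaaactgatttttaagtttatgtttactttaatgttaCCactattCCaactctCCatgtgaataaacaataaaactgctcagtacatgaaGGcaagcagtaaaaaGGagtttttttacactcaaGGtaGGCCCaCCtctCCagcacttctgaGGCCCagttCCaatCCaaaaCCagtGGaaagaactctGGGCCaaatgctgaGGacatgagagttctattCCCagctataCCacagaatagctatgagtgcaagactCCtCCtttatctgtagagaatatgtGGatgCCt

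The read share of both arms was lower in PEO4, and far more so on 3q. On 3p, the untreated PEO1 libraries held 3.37%, 3.30% and 3.30% of their reads and the PEO1 16 µM libraries 3.21%, 3.31% and 3.31%. The PEO4 libraries held 3.03%, 3.06% and 3.02% untreated, 3.17%, 3.05% and 3.05% with 16 µM, and 3.02%, 3.12% and 3.14% with 32 µM. The lowest PEO1 library thus stood above the highest PEO4 library on the short arm, by a narrow margin.

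On 3q, the PEO1 libraries held 5.74%, 5.54% and 5.52% untreated and 5.34%, 5.63% and 5.63% at 16 µM. The PEO4 libraries held 3.98%, 4.06% and 3.96% untreated, 4.23%, 3.98% and 4.02% with 16 µM, and 3.97%, 4.24% and 4.18% with 32 µM. No PEO4 library reached the level of any PEO1 library. In the untreated libraries the log2 ratio of PEO4 to PEO1 was -0.13 ± 0.01 (SE, n = 3 against 3) on 3p and -0.49 ± 0.02 on 3q.

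The treated libraries differed in the same direction. The chromosome was selected on the untreated libraries, but with earlier results of these data known. Treated and untreated libraries come from the same lines, so a difference already present without drug could recur with it. The p-values of the treated comparisons are therefore not independent evidence of a difference between the lines. At 16 µM in both lines the log2 ratio was -0.09 ± 0.02 on 3p and -0.44 ± 0.04 on 3q. The doses of 32 µM in PEO4 and 16 µM in PEO1 were meant to give similar adduct loads. Between them it was -0.08 ± 0.02 on 3p and -0.42 ± 0.04 on 3q. Each of these 4 comparisons gave a two-sided exact permutation p of 0.1, the smallest that 3 against 3 libraries allow, with no overlap between the groups.

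**Figure D1:**
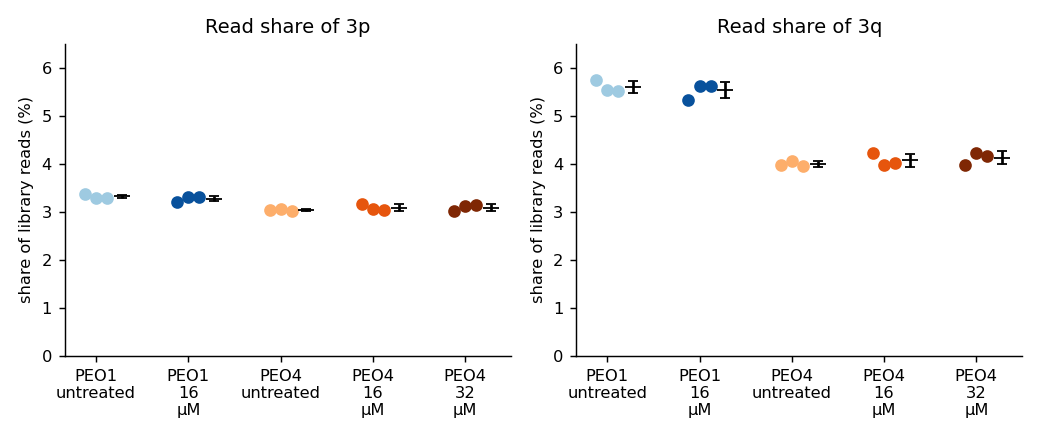
Share of library reads on 3p (left) and 3q (right), in percent, with 1 point per library and the mean ± SD of each group of 3 in black. On 3q the PEO1 libraries lie between 5.34% and 5.74% and the PEO4 libraries between 3.96% and 4.24%, whereas on 3p the lines lie close together.

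The arms were not lowered as a whole. The difference between the lines was made of stretches with sharp ends, separated by long stretches in which they differed by little or not detectably. In 100 kb bins at 16 µM in both lines, 643 of 1949 bins (32.99%) were lower in PEO4 and 0 were higher (edgeR quasi-likelihood test, Benjamini-Hochberg adjusted p under 0.05). Of all 28190 bins of the genome, 10.5% were called lower and 3624 bins were called higher. At 32 µM against 16 µM, 638 bins (32.7%) were lower and 9 higher, with the same background of 10.5% called lower and 3614 bins of the genome called higher. With a GC offset per library, 655 bins were lower and 15 higher at 16 µM, beside 3340 lower and 4133 higher of 28190 over the genome. The same offset gave 663 lower and 22 higher at 32 µM against 16 µM, beside 3367 lower and 4180 higher over the genome. In the untreated libraries the corresponding description was 642 lower and 7 higher bins. Over the genome it was 10.7% lower and 4065 bins higher. Nothing is read from it, because this contrast chose the chromosome. In bins of 1 Mb, 66 of 196 were lower in PEO4 and 0 higher in each of the treated comparisons. Over the genome, 327 of 2875 such bins were lower at 16 µM and 338 at 32 µM against 16 µM, while 406 and 419 were higher.

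The bins called lower at 16 µM filled 6 of the 11 regions nearly without gaps. They were 77 of 77 bins from 35.3 to 43 Mb on 3p and, on 3q, 152 of 152 from 140.1 to 155.3 Mb, 101 of 101 from 155.3 to 165.4 Mb, 43 of 43 from 165.4 to 169.7 Mb, 14 of 14 from 169.7 to 171.1 Mb and 251 of 252 from 172.8 Mb to the end. Between 171.1 and 172.8 Mb, 2 of 17 bins were called. In the rest of the chromosome, 1 of 353 bins was called from 0 to 35.3 Mb, 1 of 193 from 43.4 to 62.7 Mb, 1 of 743 from 62.7 to 140.1 Mb and 0 of 4 from 43 to 43.4 Mb.

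**Figure D2:**
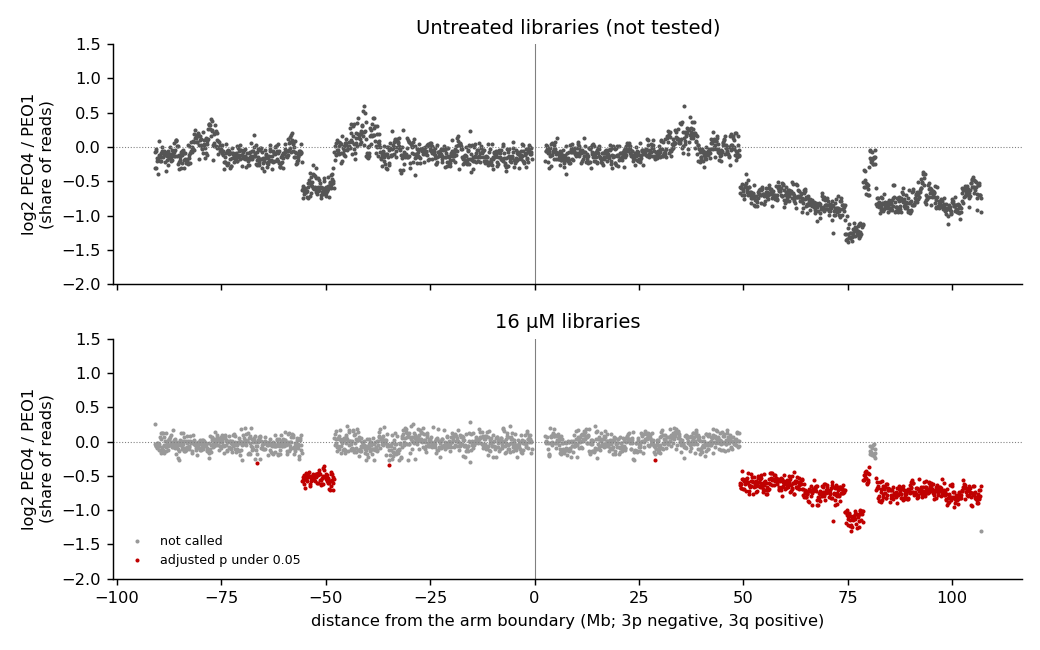
Log2 ratio of PEO4 to PEO1 read share in 100 kb bins against distance from the arm boundary in Mb, in the untreated libraries (top, not tested) and in the 16 µM libraries (bottom, with bins of adjusted p under 0.05 in red). The 643 red bins form blocks on distal 3q and a short block on 3p, with the lowest block near 75 Mb from the boundary.

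Levels within each line showed which line departed from the genome median. PEO4 lay near the median over most of the chromosome, and the stretches with a lower share in PEO4 were those in which PEO1 was raised. From 35.3 to 43 Mb the GC-adjusted level was 1.55 ± 0.01 (SD, n = 3) in 16 µM PEO1, 1.07 ± 0.01 in 16 µM PEO4 and 1.08 ± 0.02 in 32 µM PEO4. This block of 3p holds CTNNB1, the beta-catenin gene.

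On 3q, PEO1 rose in a staircase. At 16 µM it stood at 1.59 ± 0.04 from 140.1 to 155.3 Mb, at 1.76 ± 0.03 from 155.3 to 165.4 Mb and at 2.23 ± 0.03 from 165.4 to 169.7 Mb. PEO4 at 16 µM stood at 1.05 ± 0.01, 1.05 ± 0.01 and 1.03 ± 0.03 over the same 3 regions. Every PEO1 library was above every PEO4 library in each of them.

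The highest level of PEO1 extended past the point at which PEO4 itself rose. From 169.7 to 171.1 Mb, PEO1 at 16 µM was at 2.23 ± 0.05 and PEO4 at 1.55 ± 0.02. From 171.1 to 172.8 Mb PEO1 had come down to 1.84 ± 0.04 while PEO4 remained at 1.64 ± 0.04. From 172.8 Mb to the end of the chromosome PEO1 was at 1.74 ± 0.02 and PEO4 was back at 1.05 ± 0.01. Of the 11 regions, PEO4 stood well above its genome median only in these from 169.7 to 172.8 Mb, and it was lower than PEO1 there too.

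Both lines shared a low stretch on 3p. From 43.4 to 62.7 Mb the level at 16 µM was 0.548 ± 0.0066 in PEO1 and 0.534 ± 0.0010 in PEO4. The treated lines differed there by -0.04 on the log2 scale, which made up 0.915% of the treated difference in the chromosome's share. From 62.7 to 140.1 Mb, across the centromere, the levels at 16 µM were 1.037 ± 0.0087 in PEO1 and 1.035 ± 0.0043 in PEO4.

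**Figure D3:**
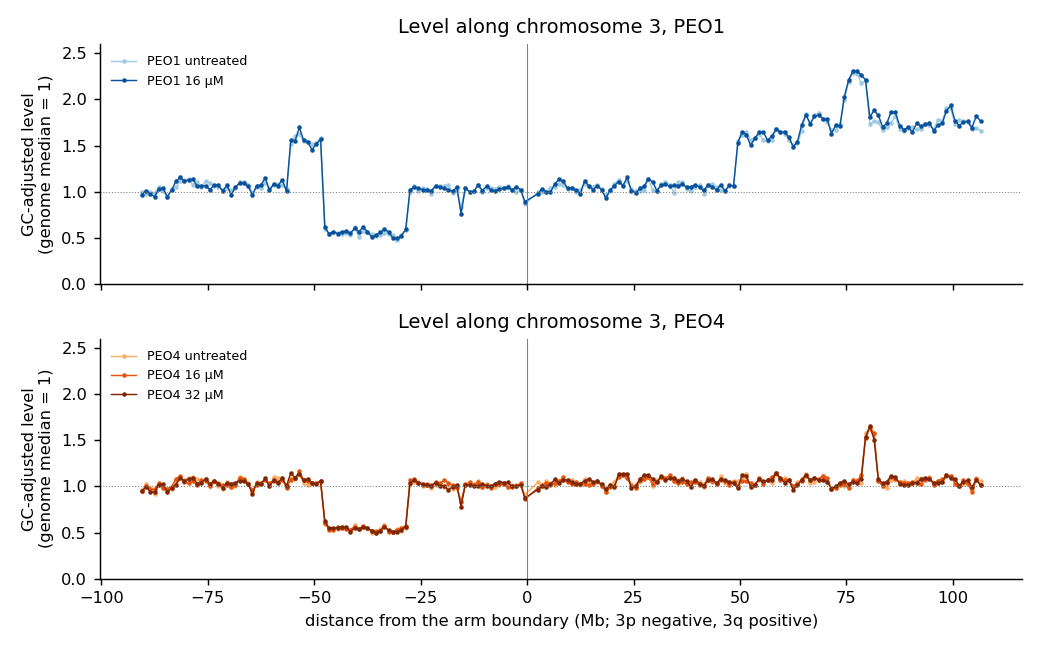
GC-adjusted level along chromosome 3 (genome median = 1) as medians of 100 kb bins per Mb, against distance from the arm boundary in Mb, for PEO1 (top) and PEO4 (bottom), with 1 line per group mean. Treated and untreated profiles overlie each other, both lines share a trough on 3p, and PEO1 is raised at 1.55 on 3p and from 1.59 to 2.23 on 3q.

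The 6 treated PEO4 libraries were compared with the 3 treated PEO1 libraries in each of the 11 regions. The regions were drawn after the data had been seen, from the untreated libraries of the same lines. The p-values by region are therefore not independent evidence of a difference. The log2 difference was -0.53 ± 0.01 (SE) from 35.3 to 43 Mb, -0.59 ± 0.02 from 140.1 to 155.3 Mb, -0.74 ± 0.02 from 155.3 to 165.4 Mb, -1.11 ± 0.02 from 165.4 to 169.7 Mb, -0.51 ± 0.02 from 169.7 to 171.1 Mb, -0.17 ± 0.02 from 171.1 to 172.8 Mb and -0.73 ± 0.01 from 172.8 Mb to the end. In all 7 the two-sided exact permutation p was 0.0238, the smallest that 6 against 3 libraries allow, and 0.0291 after adjustment over the 11 regions. Differences of -0.03 from 0 to 35.3 Mb and of -0.04 from 43.4 to 62.7 Mb reached the same p with groups that were separated by small margins. The region from 62.7 to 140.1 Mb differed by -0.00018 ± 0.0075 and that from 43 to 43.4 Mb by 0.02 ± 0.04 (exact permutation p = 1 for each).

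The regions of 3q beyond 140.1 Mb together accounted for most of the lower share, and the region at its end gave the largest part. Of the untreated difference in the chromosome's share, 35.5% came from 172.8 Mb to the end, 17.9% from 140.1 to 155.3 Mb, 15.5% from 155.3 to 165.4 Mb, 10.6% from 165.4 to 169.7 Mb and 7.97% from the raised block of 3p. In the treated libraries the same 5 regions gave 40.3%, 18.4%, 15.5%, 10.97% and 8.94%. The largest contribution came from a region with 12.9% of the tested bins, while the region with the largest fold held 2.21% of them.

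**Figure D4:**
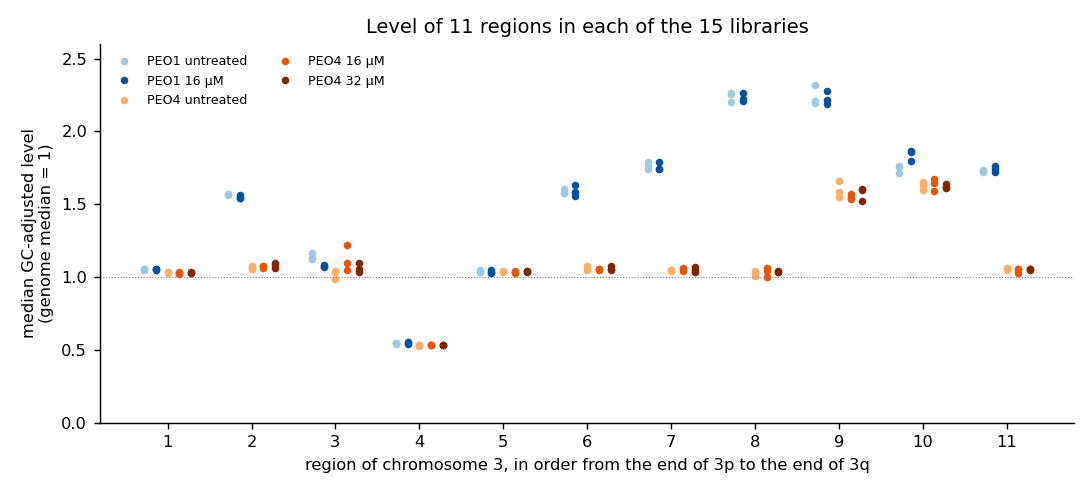
Median GC-adjusted level (genome median = 1) of the 11 regions, numbered from the end of 3p to the end of 3q, with 1 point for each of the 15 libraries. PEO1 (blue) is above PEO4 (orange to brown) in regions 2 and 6 to 11, both lines lie near 0.55 in region 4, and region 3, with 4 bins, shows the widest spread among PEO4 libraries.

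The steps between regions were placed by the read counts of 1 kb windows, separately in untreated and treated libraries. On 3p both lines fell at the window starting at 43420500, within SNRK, a serine/threonine kinase gene, where it overlaps ANO10, an anoctamin gene. PEO1 went from 1.14 to 0.55 there and PEO4 from 1.04 to 0.53. Treated libraries placed the step in the same window in PEO4 and 0.9 kb away in PEO1. Both lines rose again at the window starting at 62674200, in an intron of CADPS, which encodes a protein of vesicle exocytosis, and treated libraries placed this step in the same window in PEO1 and 4.5 kb away in PEO4.

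The remaining steps were found in the profile of a single line. PEO1 rose at 35294400, outside protein-coding genes, fell at 43005600, and rose at 140078700 in CLSTN2, a calsyntenin gene, at 155304000 in PLCH1, a phospholipase C gene, and at 165315600. It fell from 2.23 to 1.73 at 171137700 in TNIK, a kinase gene of the WNT pathway. Around the TNIK step, PEO1 at 16 µM had 24.9 ± 0.5 reads per window in the 111 windows before and 18.6 ± 0.7 in the 112 after (scaled to the median library total), whereas PEO4 at 16 µM had 17.7 ± 3.2 and 15.9 ± 0.8. The groups of PEO1 did not overlap across the step and those of PEO4 did.

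PEO4 rose at 169700400 in SEC62, a subunit of the protein translocation machinery of the endoplasmic reticulum, and fell within SPATA16, a gene of spermatogenesis. Around the SPATA16 step PEO4 at 16 µM fell from 19.9 ± 1.5 to 12.9 ± 1.5 reads per window and PEO4 at 32 µM from 20.2 ± 2.4 to 13.5 ± 0.8, while PEO1 at 16 µM had 22.2 ± 2.4 and 21.4 ± 2.3. Treated libraries placed the SPATA16 and TNIK steps in the same window as untreated libraries. Over the 12 steps the distance between the placements was 0 to 37.8 kb, and it was largest for the shallow step in PLCH1. The 100 kb on either side of that step also differed in PEO4, with 9.31 ± 0.26 reads per window before and 11.9 ± 0.6 after in untreated PEO4, beside 17.0 ± 0.8 and 20.7 ± 1.2 in untreated PEO1, so the step in PLCH1 was not shown to be in PEO1 alone.

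A second division, drawn from the ratio between the untreated lines without GC adjustment, gave 17 segments. Their p-values in the treated libraries are likewise not independent evidence. Treated PEO4 pooled both doses here as well. In 9 segments, covering 65.6 Mb, it was lower by over 0.25 on the log2 scale (each exact permutation p 0.045, adjusted over segments). This call sat at the edge of what the exact test allows, and 0 segments passed with double the penalty per step or when any of the 9 treated libraries or untreated PEO4 replicate 3 was left out, although the lower stretch still measured 65.6 Mb with double the penalty. Without a treated PEO1 library the exact p cannot fall below 0.05. Without a treated PEO4 library its smallest value also rises, and after adjustment 9 such segments among 17 cannot pass. The count of 0 without a treated library therefore says nothing on whether the segments depend on that library. With a GC offset per library there were 8 segments, of which 6 were lower over the same 65.6 Mb, with starts at 35.3, 140.1, 156, 165.3, 169.7 and 172.8 Mb.

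Gene bodies followed the regions in which they lie. At 16 µM in both lines, 279 of 999 tested protein-coding gene bodies of the chromosome (27.9%) were lower in PEO4 and 0 were higher (edgeR adjusted p under 0.05). Of 17241 gene bodies over the genome, 7.75% were lower and 1780 genes were higher. With a GC offset per library, 301 were lower and 2 higher, beside 1587 lower and 2142 higher of 17241 over the genome. At 32 µM against 16 µM, 275 were lower, beside 7.68%. The untreated description was 299 lower, beside 9.14%. At 16 µM the lower genes were 40 of 61 in the raised 3p block, 56 of 70 from 140.1 to 155.3 Mb, 29 of 34 from 155.3 to 165.4 Mb, 13 of 13 from 165.4 to 169.7 Mb, 11 of 12 from 169.7 to 171.1 Mb, 1 of 8 from 171.1 to 172.8 Mb and 129 of 145 beyond. None of 303 genes from 62.7 to 140.1 Mb and none of 202 from 43.4 to 62.7 Mb was called.

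Of 23 listed oncogenes of 3q, 21 were tested and 16 were lower in PEO4 at 16 µM, with a median log2 difference of -0.61 over the 21, against -0.01 over all genes, of which 7.75% were called lower. TERC and SOX2 are short and fell below the count filter. MECOM (ENSG00000085276, chr3:168801287-169381563, minus strand) encodes a zinc finger transcription factor and lies in the region of the largest difference. Its level per kb and M reads was 0.853, 0.818 and 0.757 in PEO1 cells without drug and 0.727, 0.819 and 0.865 with 16 µM. In PEO4 it was 0.356, 0.343 and 0.355 without drug, 0.411, 0.387 and 0.380 with 16 µM, and 0.358, 0.385 and 0.403 with 32 µM. All 9 PEO4 libraries were below all 6 PEO1 libraries, and the log2 difference at 16 µM was -1.02 ± 0.11 (SE, edgeR adjusted p = 1.72e-07).

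PRKCI, an atypical protein kinase C gene at chr3:169940212-170023765, lies where PEO4 is also raised, and its difference was smaller. Its level was 0.975, 0.978 and 0.854 in PEO1 and 0.616, 0.619 and 0.681 in PEO4 at 16 µM (log2 difference -0.54 ± 0.09, edgeR adjusted p = 0.000116). PIK3CA, the catalytic subunit gene of phosphoinositide 3-kinase at chr3:178865902-178957881, had 0.598, 0.745 and 0.681 in PEO1 and 0.406, 0.371 and 0.379 in PEO4 (-0.80 ± 0.14, edgeR adjusted p = 0.000105). SKIL, a repressor of SMAD signalling, differed by -0.43, TNIK by -0.47, TFRC, the transferrin receptor gene, by -0.92 and PAK2, a kinase gene near the end of 3q, by -0.93.

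The other 5 tested genes of the list were not called. ECT2, an exchange factor of cytokinesis, and FNDC3B lie between 171.1 and 172.8 Mb and differed by -0.19 ± 0.15 and -0.13 ± 0.10. PIK3CB, GATA2 and RPN1 lie proximal to 140.1 Mb, and PIK3CB differed by 0.00 ± 0.09. EIF4G1, a translation initiation factor gene, passed narrowly (-0.49 ± 0.17, edgeR adjusted p = 0.0439) and did not pass in 11 of the 15 fits that left out a single library, with adjusted p of up to 0.249 when PEO1 16 µM replicate 1 was left out.

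Of 22 listed tumour suppressor genes of 3p, among which the oncogene CTNNB1 was kept as a control, 21 were tested and 3 were lower in PEO4 at 16 µM. These were CTDSPL, a phosphatase gene (-0.48), DLEC1 (-0.54) and CTNNB1 (-0.63), which all lie in the block from 35.3 to 43 Mb. CTNNB1 had 0.633, 0.608 and 0.618 reads per kb and M reads in PEO1 and 0.425, 0.394 and 0.371 in PEO4 at 16 µM. The median over the 21 genes was -0.09, against -0.01 over all genes, and the count stood beside 7.75% called lower over the genome and 27.9% over the chromosome.

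The suppressor genes of the shared low stretch were low in both lines. FHIT, a very long gene at a common fragile site (chr3:59733003-61237133), had 0.177, 0.189 and 0.191 reads per kb and M reads in PEO1 and 0.207, 0.188 and 0.176 in PEO4 at 16 µM, and the log2 difference was 0.05 ± 0.11 (edgeR adjusted p = 0.928). The chromatin genes PBRM1 and SETD2 had means of 0.251 and 0.235 in PEO1 and of 0.236 and 0.220 in PEO4. In comparison, RARB and FOXP1, outside the stretch, had 0.392 and 0.390 in PEO1 and 0.390 and 0.399 in PEO4. RASSF1 ranged from 0.196 to 0.379 in PEO1 and from 0.158 to 0.201 in PEO4 at 16 µM, and its highest value came from PEO1 16 µM replicate 1, the library with the GC slope of 0.39.

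Among 21 listed DNA repair and replication genes, 20 were tested and 5 were lower in PEO4 at 16 µM, a share close to the 27.9% of all gene bodies of the chromosome and above the 7.75% of the genome. ATR, the kinase that responds to stalled replication, had 0.621, 0.624 and 0.617 in PEO1 and 0.398, 0.348 and 0.408 in PEO4 (-0.68 ± 0.11, edgeR adjusted p = 4.09e-05). The others were HLTF of post-replication repair (-0.70), the condensin subunit SMC4 (-0.76), the clamp loader subunit RFC4 (-1.07) and the ubiquitin ligase RNF168 (-0.84). XPC, FANCD2, OGG1 and POLQ, outside the raised blocks of PEO1, differed by -0.14, -0.14, -0.07 and 0.16 and were not called. WDR48 was not called either, but it was borderline. It passed with a GC offset per library (-0.33, edgeR adjusted p = 0.0443) and without replicate 1 of PEO1 or of PEO4 at 16 µM (edgeR adjusted p = 0.0391 and 0.0358).

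All 4 listed transport genes were lower in PEO4 at 16 µM, where 27.9% of gene bodies of the chromosome and 7.75% of the genome were. The efflux pump ABCC5 differed by -0.75 ± 0.09, the flippase gene ATP11B by -0.81 ± 0.12, and the organic anion transporter family members SLC22A13 and SLC22A14 by -0.68 ± 0.21 and -0.56 ± 0.12. SLC22A13 was no longer called without PEO1 16 µM replicate 1 or 3 or PEO4 16 µM replicate 2 or 3 (edgeR adjusted p of up to 0.166). Of 15 very long genes, only NAALADL2, which lies on distal 3q, was lower (-0.70 ± 0.12), and the others differed by -0.09 to 0.05. A count of 1 among 15 is near the 7.75% called lower over the genome.

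**Figure D5:**
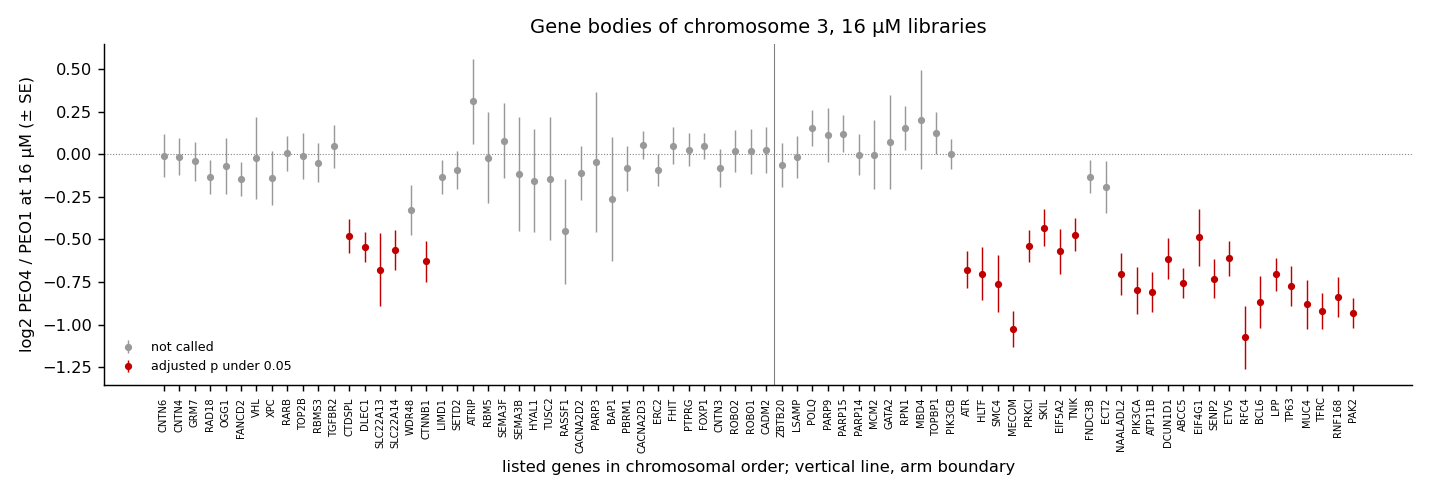
Log2 ratio of PEO4 to PEO1 (± SE) at 16 µM over the bodies of the tested listed genes in chromosomal order, with adjusted p under 0.05 in red and a vertical line at the arm boundary. The lower genes form a group on 3p around CTNNB1 and a run on 3q from ATR onwards, with MECOM at -1.02 and RFC4 at -1.07 lowest and FNDC3B and ECT2 near 0.

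The changes of the chromosome's share with cisplatin were small beside the differences between the lines on 3q. In PEO1 at 16 µM the share changed on the log2 scale by -0.02 ± 0.02 (SE) on 3p and -0.02 ± 0.03 on 3q. The 16 µM dose changed it in PEO4 by 0.02 ± 0.02 on 3p and 0.03 ± 0.03 on 3q, and the 32 µM dose by 0.03 ± 0.02 on 3p and 0.05 ± 0.03 on 3q. Between the doses in PEO4 the changes were 0.00 ± 0.03 and 0.02 ± 0.04. Over the 2 arms and 6 comparisons the smallest adjusted exact permutation p was 0.72. Since 3 against 3 libraries cannot give an unadjusted p below 0.1, no arm response could have passed, and this test says nothing on whether the share was stable.

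The difference between the responses, PEO4 minus PEO1, was 0.04 ± 0.02 on 3p and 0.06 ± 0.04 on 3q at 32 µM against 16 µM. At 16 µM in both it was 0.04 ± 0.02 on each arm (SE 0.04 on 3q). Beside these values stand the GC slopes of the treated libraries, and with a GC offset per library the response differences at 32 µM against 16 µM became 0.0048 on 3p and -0.0061 on 3q.

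No 100 kb bin and no gene body of the chromosome was called for any response, by edgeR and by DESeq2 or limma over bins, and 0% of bins over the genome were called. At an unadjusted p under 0.05, PEO1 at 16 µM had 44 of 1949 bins (2.26%, beside 3.1% of all bins), PEO4 at 16 µM had 34 (1.74%, beside 2.14%) and PEO4 at 32 µM had 208 (10.7%, beside 9.3%). PEO4 at 32 µM against 16 µM had 85 (4.36%, beside 2.94%). The response difference had 126 (6.46%, beside 7.73%) at 32 µM against 16 µM and 46 (2.36%, beside 4.25%) at 16 µM in both lines. In this fit the chromosome's share was slightly above that of the genome in PEO4 at 32 µM, by either reference, and below it in the other 4 comparisons. By limma the order turned for PEO4 at 32 µM against untreated, with 410 of 1949 bins beside 5979 of 28190. No trait of the chromosome is read from shares so near those of the genome. The counts rested on single libraries. Leaving out a library in turn gave 84 to 509 bins for 32 µM PEO4, with 509 when replicate 1 of that group was left out and 84 when replicate 2 was. Over the genome these 2 fits gave 7185 and 1031 of 28190 bins. For the response difference with 32 µM there were 61 to 347, with 347 without the same replicate 1 and 61 without PEO1 16 µM replicate 1. The genome counts beside these were 5533 and 904, so the counts of the chromosome moved with those of the genome.

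Before GC adjustment, regions moved with their GC content at 32 µM. The region from 43.4 to 62.7 Mb, with 43.8% GC, had a median bin response of -0.09 in PEO4 at 32 µM, and that from 165.4 to 169.7 Mb, with 36.4% GC, had 0.13. After GC adjustment the regional responses in PEO4 at 32 µM lay between -0.02 and 0.06 and those in PEO1 at 16 µM between -0.08 and 0.08, and the smallest adjusted exact permutation p over regions was 0.367, in a test that could not have passed with 3 against 3 libraries.

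The 4 bins that came closest to a response difference at 32 µM against 16 µM had an adjusted p of 0.602 in edgeR. The bin chr3:163800001-163900000, 797 kb from the nearest protein-coding gene SI, had 1460, 1933 and 1951 reads in PEO1 at 16 µM and 1218, 1348 and 1411 in PEO4 at 32 µM, against group means of 2006 and 1010 in the untreated lines (scaled to the median library total). Its response difference was 0.54 ± 0.15. The bin chr3:13500001-13600000, over HDAC11 and FBLN2, had 1758, 1448 and 1460 reads in PEO1 at 16 µM and 1612, 1147 and 1211 in PEO4 at 32 µM, against 1303 and 1729 untreated, and a difference of -0.67 ± 0.21. In both bins PEO1 replicate 1 and PEO4 replicates 2 and 3, the libraries with outlying GC slopes, lay furthest from the untreated means.

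The other pair of bins was chr3:165900001-166000000, an intergenic bin nearest to BCHE (0.53 ± 0.14), and chr3:49900001-50000000, over CAMKV, MST1R, MON1A and RBM6 (-0.82 ± 0.25). The higher bins had 33.9% and 35.4% GC and the lower bins 51.7% and 52.5%. With a GC offset per library the differences became 0.31, 0.37, -0.41 and -0.26 for the bins nearest to BCHE and SI and those over MON1A and HDAC11, in that order, with an edgeR adjusted p of at least 0.610. The contrast in base composition is visible in 300 bases from the middle of a GC-poor and of a GC-rich bin, on the plus strand of GRCh37 with GG and CC dinucleotides in capitals, of which there are 20 and 50.
GC-poor bin, chr3:163849851-163850150: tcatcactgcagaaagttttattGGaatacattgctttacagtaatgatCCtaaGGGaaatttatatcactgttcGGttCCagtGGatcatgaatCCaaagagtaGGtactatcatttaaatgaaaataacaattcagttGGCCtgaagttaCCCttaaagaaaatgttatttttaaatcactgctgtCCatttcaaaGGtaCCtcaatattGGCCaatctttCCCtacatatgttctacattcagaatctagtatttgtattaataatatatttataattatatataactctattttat
GC-rich bin, chr3:13549851-13550150: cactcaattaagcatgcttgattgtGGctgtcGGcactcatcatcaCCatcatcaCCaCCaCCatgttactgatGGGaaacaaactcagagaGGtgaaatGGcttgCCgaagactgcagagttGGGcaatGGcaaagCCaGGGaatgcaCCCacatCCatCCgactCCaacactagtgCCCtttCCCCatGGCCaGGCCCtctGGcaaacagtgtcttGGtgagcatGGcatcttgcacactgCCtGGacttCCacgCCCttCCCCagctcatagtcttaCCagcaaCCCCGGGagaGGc

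The bins with the largest differences between the lines at 16 µM all lay in the region from 165.4 to 169.7 Mb. The bin chr3:166700001-166800000 had 2437, 2763 and 2498 reads in PEO1 and 1120, 1004 and 1002 in PEO4 (log2 difference -1.28 ± 0.09, edgeR adjusted p = 1.86e-08). The bins chr3:168200001-168300000 and chr3:165600001-165700000 differed by -1.24 ± 0.14 and -1.16 ± 0.12. All 3 lay outside protein-coding genes, the nearest being ZBBX, GOLIM4 and BCHE. Without a GC offset edgeR called 0 bins of the chromosome higher in PEO4 at 16 µM and DESeq2 called 1, beside 3624 and 3647 of 28190 over the genome.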

How the data were processed

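Pt-exo-seq libraries were single-end reads of exonuclease-treated DNA from PEO1 and PEO4. The authors aligned the reads to hg19 with Bowtie2 and removed duplicates with Picard, and deposited raw counts of reads in 1 kb windows stepped by 900 bp. Neighbouring windows overlap by 100 bp, so a read in the overlap may have been counted in both. How such reads were assigned is not stated. The last windows ended at the GRCh37 length on 24 of 24 chromosomes. No molecular identifiers are mentioned, so counts are not independent molecules.

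Counts were summed by window midpoint into 100 kb bins, 1 Mb bins and protein-coding gene bodies (GENCODE 44 mapped to GRCh37). All 28190 bins and 17241 genes with a mean count of at least 50 on chromosomes other than Y were fitted together with edgeR 4.0.16 (R 4.3.3; quasi-likelihood test, TMM factors, 15 libraries in 5 groups without covariates, trended dispersion, Benjamini-Hochberg adjustment), and chromosome 3 was printed. The biological coefficient of variation was 10.0% for bins. DESeq2 1.42.0 and limma 3.58.1 were alternatives. Levels per gene are reads per kb and M library reads, at 0.9 kb per window. Arm shares and regional levels were compared by two-sided exact permutation tests, and response differences on log2 ratios to the mean of the line's untreated libraries. Segments were found by least squares, with a penalty of 10 times the squared noise times the log of the number of bins and a length of at least 2 Mb. The 11 regions lay between the steps of each line alone, from segments of at least 4 bins and steps of at least 0.125 (log2). Stretches under 10 bins in which under 95% of windows held a read were passed over in calling steps. Their tested bins still counted in the regional levels. All code was tested on simulated data.

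The members and the gene lists were chosen with earlier results of these data known. Named bins were the 3 with the largest difference between the lines at 16 µM and, since no response was called, the 2 in each direction with the smallest p for PEO4 (32 µM) minus PEO1 (16 µM) responses, at least 1 Mb apart. Printed sequence was the middle of the exon-free window nearest to a bin's centre or of the window of a step. Of the 7 sequences so taken, 5 are shown. A further sequence and 1 listed gene are not reported here. Library replicates differed by more than sampling noise, with a chi-square per degree of freedom of at least 5.33 on chromosome 3.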

Additional observations from a re-analysis of the deposited data

Results flagged for a closer look

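In 3 results every library of PEO4 moved from its untreated mean in the direction opposite to every library of PEO1. The first was the share of 3p at 16 µM in both lines, in which the PEO4 libraries rose by 0.0042 to 0.061 on the log2 scale and the PEO1 libraries fell by 0.0036 to 0.048, a response difference of 0.043. Its two-sided exact permutation p was 0.1, the smallest that 3 against 3 libraries allow, and 0.72 after adjustment over arms and comparisons. The extreme library on each side was replicate 1 at 16 µM, with GC slopes of -0.46 in PEO4 and 0.39 in PEO1, and with a GC offset per library the difference was 0.0062 (exact permutation p = 0.5).

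The other 2 were the GC-adjusted level from 43 to 43.4 Mb, a region of 4 bins, with response differences of 0.137 at 32 µM against 16 µM and of 0.211 at 16 µM in both lines (exact permutation p = 0.1 for each, adjusted 0.55 and 0.367). PEO1 went from 1.14 ± 0.02 (SD, n = 3) untreated to 1.08 ± 0.01 at 16 µM, and PEO4 from 1.02 ± 0.03 to 1.12 ± 0.09 at 16 µM and 1.06 ± 0.03 at 32 µM. The highest PEO4 library, replicate 1 at 16 µM with 1.22, was the library with the GC slope of -0.46. Without GC adjustment the response difference at 16 µM was 0.191, whereas that at 32 µM against 16 µM was 0.052 and PEO4 at 32 µM moved by -0.046, in the same direction as PEO1 (-0.097), so the opposite movement at 32 µM was seen only after GC adjustment.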

How the results depend on the processing

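No response was called in any bin of chromosome 3 under any alternative that was run. Bins called between the treated lines are given for 16 µM and for 32 µM against 16 µM, in that order. A replicate block gave 640 and 639, beside 6430 and 6413 of 28190 over the genome. A GC offset gave 670 and 685, beside 7473 and 7547 over the genome. Of the 670 and 685, 15 and 22 were higher in PEO4, against 0 and 9 without the offset, beside 4133 and 4180 higher over the genome. DESeq2 gave 649 and 659, beside 6696 and 6747 over the genome. Deviations of same-numbered libraries had r of -0.677 to 0.634 over 30 pairs (median -0.165), against a median of 0.105 over 60 pairs of different numbers. Deviations were taken from group means, so the 2 sets of r offset each other by construction. They cannot tell whether the numbers share a source, and the labels give none. The replicate block changed no other call of bins. Arm responses near 0 turned sign. On 3p, PEO4 at 32 against 16 µM (0.0018) became -0.0028 without 5 Mb on either side of the boundary, -0.0014 with a GC offset, and -0.0087 to 0.020 with a library left out. On 3q a GC offset gave 0.0078 for PEO1 at 16 µM, -0.0038 for PEO4 at 16 µM, -0.0061 for the response difference at 32 against 16 µM and -0.0116 at 16 µM in both, and leaving out a library gave -0.031 to 0.0080 for PEO1 and -0.00064 to 0.045 for PEO4 at 32 against 16 µM. The 9 lower segments became 0 with double the penalty, while the lower stretch stayed at 65.6 Mb. They became 0 to 9 without a library (0 when a treated library or untreated PEO4 replicate 3 was left out). Without a treated library the adjusted exact test could not pass for 9 such segments, so that count says nothing on stability. For double the penalty and for untreated PEO4 replicate 3 the cause was not tested. The region from 43 to 43.4 Mb gave -0.0019 without GC adjustment, -0.021 at 32 µM alone and -0.017 to 0.031 without a library, the region from 62.7 to 140.1 Mb gave 0.0026 at 32 µM alone and -0.0052 to 0.0065 without a library, and BAP1 gave -0.62 to 0.083 without a library (0.083 without PEO4 16 µM replicate 1). Counts of bins at an unadjusted p under 0.05 for PEO4 at 32 µM ranged from 84 to 509 without a library (509 without PEO4 32 µM replicate 1, 84 without replicate 2) and from 126 with a GC offset to 410 by limma. Over the genome the same fits gave 7185 of 28190 bins without replicate 1, 1031 without replicate 2, 1511 with the GC offset and 5979 by limma.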
